A study of Mus musculus with 8 samples.

Results

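A set of 7 mouse genes for inflammatory chemokine receptors, Ccr1, Ccr2, Ccr4, Ccr8, Cxcr3, Cxcr4 and Cx3cr1, was followed in group 2 innate lymphoid cells (ILC2s) and CD8 T cells. They were found by gene symbol, and all 7 of 7 were present in both count tables, which hold 17642 genes for the CD8 T cells and 18389 for the ILC2s (19805 symbols in either). The rule names the genes and uses no measured value, but it was set with earlier results of these data known. Bulk RNA sequencing was done on 8 libraries in 4 groups of 2. The groups were CD8 T cells from spleen cultured alone, CD8 T cells recovered from culture with ILC2s, ILC2s from lung cultured alone, and ILC2s recovered from culture with CD8 T cells. All cells were primary and from wild-type mice, the joint culture lasted 3 days at a ratio of 5:1, and the cells were taken by flow cytometry. The alone groups are labelled untreated, and their culture time, the stimulus and medium, and the age and sex of the mice are not stated in the labels. Whether the replicates were separate cultures or animals is not stated either, so the p-values reflect only how far these particular libraries differ, which may be technical.

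Chemokine receptors are seven-pass membrane proteins that signal through inhibitory G proteins and steer leukocytes along gradients of secreted chemokines. CCR1 and CCR2 are best known from monocytes and bind inflammatory CC chemokines, CCL3, CCL5, CCL6 and CCL9 for CCR1 and CCL2, CCL7 and CCL12 for CCR2. CCR4 binds CCL17 and CCL22 and CCR8 binds CCL1 and CCL8; both receptors are typical of type 2 and skin-homing lymphocytes. CXCR3 binds the interferon-induced chemokines CXCL9, CXCL10 and CXCL11 and marks type 1 effector lymphocytes, CXCR4 binds CXCL12, and CX3CR1 binds CX3CL1, also called fractalkine.

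The libraries held 48072595 to 67076905 counted reads each. Markers of other cells moved with the culture label in the libraries of both cell types and are given before the receptors. Over all 16739 genes tested in ILC2s, 31.8% were called higher and 34.4% lower, by the test given below with the receptors. Of the 11 CD8 T cell markers, 10 fell and 1 rose from the alone to the co-cultured ILC2 libraries, and their summed level was 1640 to 1705 CPM (read counts scaled to a common library total) in the alone libraries and 329 to 402 CPM in the co-cultured ones. The alone ILC2 libraries carried these markers at a median of 30.6% of the level in the alone CD8 T cells (12.4% to 50.5%). In the co-cultured ILC2 libraries the median was 1.6% of the level in the co-cultured CD8 T cells (0.675% to 89.2%, with Zap70 highest). Of the 13 monocyte and macrophage markers, 5 were in the ILC2 table and all 5 fell, from a sum of 313 to 319 CPM to 17.0 to 21.1 CPM; Fcgr1, Mrc1, Marco, C1qa, C1qb, Ms4a7 and Itgam were among those not in that table. Of the 8 measured stroma, epithelium and endothelium markers 6 fell and 2 rose, Pecam1 by 1.19 and Lum by 0.91 on the log2 scale. Their sum was 3754 to 4069 CPM in the alone ILC2 libraries and 301 to 314 CPM in the co-cultured ones. Of the 14 measured ILC2 markers, 13 rose, from a sum of 3794 to 3818 CPM to 9348 to 9568 CPM. The alone ILC2 libraries thus carried markers of CD8 T cells, myeloid cells and stroma at levels that go against their label; whether this lies in the sort, the cultures or the labels was not tested, and every alone to co-cultured value in ILC2s rests on these 2 libraries.

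In the CD8 T cell libraries, 11 of 15 ILC2 markers were in the table, of which 4 rose and 5 fell with co-culture. After co-culture they stood at a median of 0.379% of the level in the co-cultured ILC2s, from 0.0241% for Il1rl1 to 55.7% for Gipr. Il5, a cytokine of ILC2s, was at 10.2 CPM alone and 0.675 CPM after co-culture (log2 change -3.99), and Arg1 fell by 2.01 on the log2 scale. Cpa3, a mast cell protease, went from 11.4 and 8.65 CPM to 0.0151 and 0.0298 CPM, which were 1 and 2 reads, with 2 of 2 granulocyte and mast cell markers lower. Of 5 monocyte and macrophage markers tested, 1 rose (Cd68, 1.04) and 2 fell, with Lyz2 at -4.43. Of 5 stroma, epithelium and endothelium markers 4 rose and 1 fell (Lum, -3.48). Of 7 CD4 and regulatory T cell markers 3 rose, 2 fell and 2 were not called, where 30.2% of all genes were called higher and 30.7% lower. Cd4 rose from 1.11 to 9.55 CPM (log2 change 3.02), and Foxp3 was not called, at 0.224 CPM alone and 0.210 CPM after co-culture. In bulk RNA, fewer cells of a type and less RNA per cell cannot be told apart. The ILC2 changes of the receptors and of the listed genes named below were therefore recomputed with the libraries scaled to equal summed counts of the ILC2 marker list, and that value is given for each receptor and wherever the sign or the call changed. It is a scaling under which the median log2 change over all genes is -1.53 in place of -0.01. It takes the marker RNA per ILC2 as equal in both cultures, which was not tested. With the usual scaling the markers' own log2 changes ran from 0.15 (Il17rb) to 6.30 (Gipr).

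Most of the receptors changed with co-culture, some in the same direction in both cell types and some in opposite directions. In CD8 T cells recovered from co-culture, 2 of 7 receptors rose (Ccr1 and Ccr2), 3 fell (Ccr4, Ccr8 and Cxcr3) and 2 did not pass the test (Cxcr4 and Cx3cr1), by edgeR's quasi-likelihood test at a Benjamini-Hochberg adjusted p under 0.05. Over all 15948 genes tested in CD8 T cells, 30.2% were called higher and 30.7% lower, so the receptors were called about as often as genes in general. In ILC2s recovered from co-culture, 5 of 7 rose (Ccr1, Ccr2, Ccr4, Ccr8 and Cxcr4) and 2 fell (Cxcr3 and Cx3cr1), where 31.8% of 16739 genes tested were called higher and 34.4% lower, so the share of receptors called higher was larger than that of all genes. The median log2 change of the 7 was -0.06 in CD8 T cells, against -0.005 over all genes, and 1.27 in ILC2s, against -0.01. Scaling to the ILC2 markers left 2 receptors called higher in ILC2s, Ccr2 and Ccr4, and 3 called lower, Ccr8, Cxcr3 and Cx3cr1, and under it the genes called split into 493 higher and 13303 lower, where the usual scaling gave 5324 higher and 5766 lower. The difference between the ILC2 change and the CD8 T cell change passed the interaction test for 5 of 7 receptors, 3 higher in ILC2s (Ccr4, Ccr8 and Cxcr4) and 2 lower (Ccr1 and Cxcr3). The background of that test is 20.5% of 15540 genes called higher and 33.0% called lower.

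**Figure D1:**
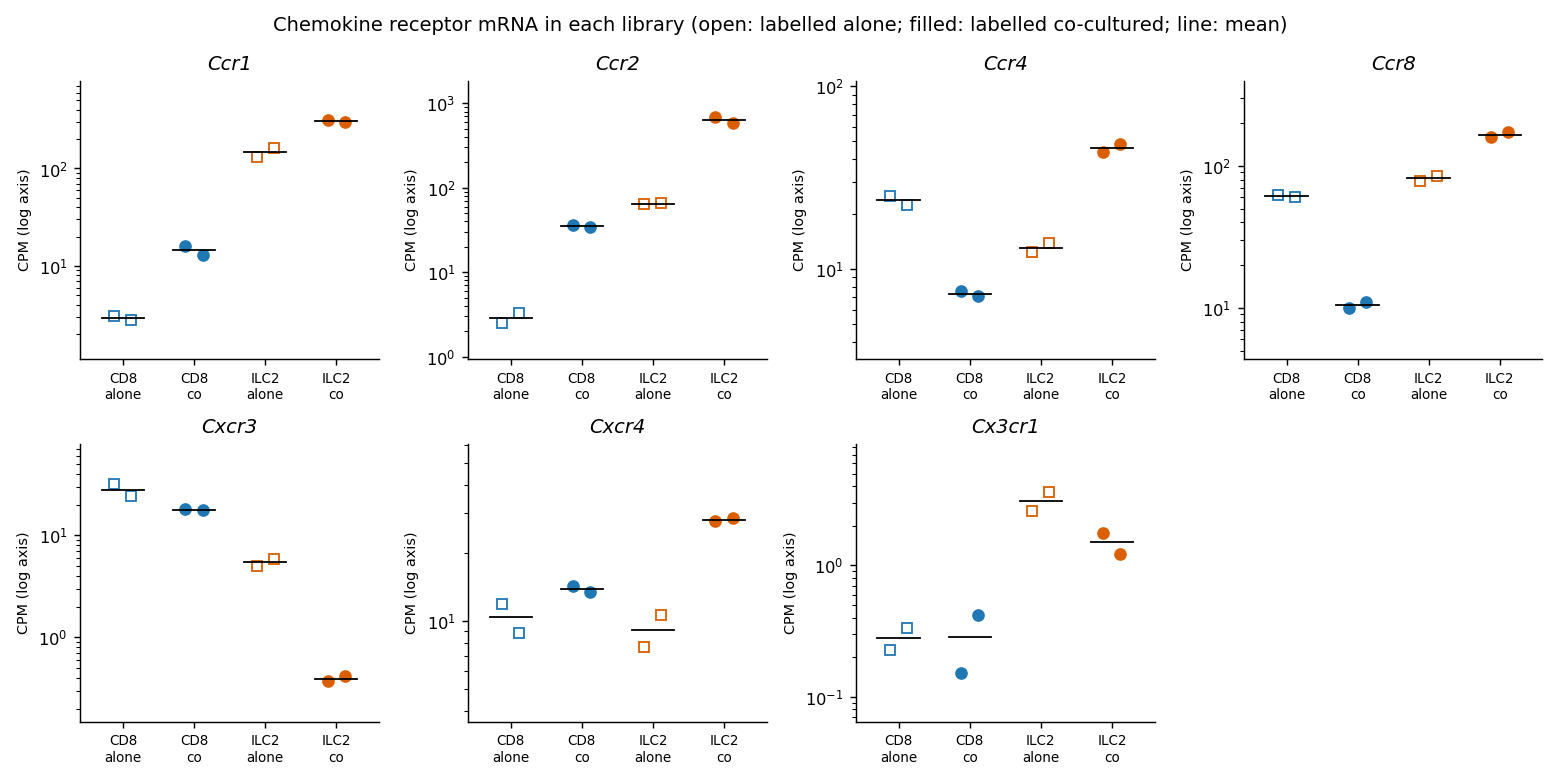
Level of each receptor in CPM (log axis) in every library, with CD8 T cells in blue, ILC2s in orange, open squares for cells labelled alone, filled circles for cells labelled co-cultured and a line at the mean of 2 libraries. Ccr4 and Ccr8 are lower in the co-cultured than in the alone CD8 T cells and higher in the co-cultured than in the alone ILC2s, although the sign for Ccr8 in ILC2s turns under scaling to the ILC2 markers.

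Ccr2, the receptor that guides monocytes and memory T cells to inflamed tissue, had the largest fitted rise of the 7 in both cell types. Its level in CD8 T cells was 2.49 and 3.28 CPM in the alone libraries and at 36.6 and 34.3 CPM in the co-cultured libraries. Both co-cultured libraries were far above both alone libraries. The means were 2.88 ± 0.558 and 35.4 ± 1.67 CPM (SD, n = 2), a 12.3-fold ratio, with a log2 change of 3.53 (SE 0.139 and, by edgeR, adjusted p = 1.3e-09).

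In ILC2s Ccr2 was at 64.2 and 65.5 CPM in the alone libraries and at 693 and 579 CPM in the co-cultured libraries. The groups did not overlap, and the alone ILC2s were already above the co-cultured CD8 T cells. The means were 64.8 ± 0.864 and 636 ± 80.6 CPM (SD, n = 2), a 9.81-fold ratio, with a log2 change of 3.51 (SE 0.146 and, by edgeR, adjusted p = 3e-09). With the libraries scaled to the ILC2 markers, the log2 change was 1.98 (edgeR adjusted p = 1.7e-08). The difference between the changes in the 2 cell types did not pass the interaction test (-0.19, SE 0.188, edgeR adjusted p = 0.41), but with the ILC2 libraries scaled to the ILC2 markers the rise was smaller in ILC2s by 1.59 (edgeR adjusted p = 7e-07). The level in co-cultured CD8 T cells was 5.57% of that in co-cultured ILC2s. The ILC2 markers there ran from 0.0241% to 55.7%, with a median of 0.379%. Gata3 (6.41%), Icos (14.4%), Rora (17.6%), Crlf2 (19.3%) and Gipr (55.7%) were above the Ccr2 value. The part of ILC2 RNA in the Ccr2 signal of the CD8 T cell libraries was not tested. Ccr2 lies at chr9:124101918-124109140 (plus strand; RefSeq, GRCm38.p6). How reads shared with related genes were counted is not given in the sources used here.

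Ccr1, a receptor for CCL3 and related chemokines on myeloid cells and activated lymphocytes, rose in CD8 T cells from 3.08 and 2.80 CPM to 15.9 and 13.0 CPM. The co-cultured libraries were both higher, with means of 2.94 ± 0.193 and 14.4 ± 2.01 CPM (SD, n = 2) and a log2 change of 2.22 (SE 0.154 and, by edgeR, adjusted p = 1e-07). In ILC2s Ccr1 was at 132 and 163 CPM alone and at 312 and 303 CPM after co-culture. Neither pair of libraries overlapped the other, and the log2 change was 1.27 (SE 0.134 and, by edgeR, adjusted p = 6.3e-06), but it was -0.25 with the libraries scaled to the ILC2 markers (edgeR adjusted p = 0.072). The change in ILC2s was smaller than in CD8 T cells by 1.11 on the log2 scale (interaction -1.11, SE 0.19, edgeR adjusted p = 0.00013), and by 2.50 with the marker scaling (interaction -2.50). Every ILC2 library was above every CD8 T cell library, whatever the culture. Monocyte markers went the other way from Ccr1 and Ccr2 in ILC2s: Lyz2, a lysozyme of myeloid cells, was at 127 CPM alone and 0.665 CPM after co-culture, and Csf1r, the receptor for macrophage colony-stimulating factor, at 13.6 and 0.124 CPM. Cd68 fell less, from 36.2 to 17.0 CPM. The part of myeloid cells in the Ccr1 and Ccr2 signals was not tested.

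Ccr1 lies at chr9:123962126-123968692 on the minus strand (RefSeq, GRCm38.p6). The 250 bases before its start, chr9:123968693-123968942, are shown 5′ to 3′ on the gene's strand, as the example of a receptor called higher in both cell types with the usual scaling; for Ccr2, the other one, only 17 bases of the window lie outside annotated exons. Capitals mark a match to the core letters of the RUNX motif, which Cxcr3 and Cx3cr1, called lower in ILC2s, hold as well.
Ccr1: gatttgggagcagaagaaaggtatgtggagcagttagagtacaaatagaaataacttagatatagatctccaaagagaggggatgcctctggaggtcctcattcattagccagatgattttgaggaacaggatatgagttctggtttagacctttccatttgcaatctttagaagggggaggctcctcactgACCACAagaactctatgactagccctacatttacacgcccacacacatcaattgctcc

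Ccr4 and Ccr8, the receptors linked to type 2 lymphocytes, were lower in co-cultured CD8 T cells and higher in co-cultured ILC2s, although for Ccr8 in ILC2s scaling to the ILC2 markers turned the sign. Ccr8 was at 62.1 and 60.0 CPM in alone CD8 T cells and at 10.1 and 11.0 CPM in co-cultured ones. All co-cultured values were well below the alone values, and the means were 61.0 ± 1.45 and 10.5 ± 0.663 CPM (SD, n = 2). The log2 change was -2.62 (SE 0.092 and, by edgeR, adjusted p = 5e-10). In ILC2s Ccr8 was at 78.7 and 84.9 CPM alone and at 160 and 172 CPM after co-culture, again without overlap. Its log2 change was 1.23 (SE 0.119 and, by edgeR, adjusted p = 3e-06) with the usual scaling and -0.29 with the libraries scaled to the ILC2 markers (edgeR adjusted p = 0.03).

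Ccr4 fell in CD8 T cells, from 25.2 and 22.4 CPM to 7.56 and 7.08 CPM. Its means were 23.8 ± 2.01 and 7.32 ± 0.336 CPM (SD, n = 2), with a log2 change of -1.78 (SE 0.116 and, by edgeR, adjusted p = 6.4e-08). In ILC2s Ccr4 rose from 12.4 and 13.8 CPM to 43.8 and 48.5 CPM. The libraries did not overlap in either cell type, and the log2 change in ILC2s was 2.03 (SE 0.137 and, by edgeR, adjusted p = 1.6e-07), or 0.51 with the marker scaling (edgeR adjusted p = 0.0054). Alone CD8 T cells held more Ccr4 than alone ILC2s, and co-cultured CD8 T cells less than any other group.

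The interaction test gave a difference between the cell types of 3.64 for Ccr4 (SE 0.176 and, by edgeR, adjusted p = 9.8e-11) and of 3.68 for Ccr8 (SE 0.143 and, by edgeR, adjusted p = 8e-12). With the ILC2 libraries scaled to the ILC2 markers the differences were 2.25 and 2.29, and both passed the test. Il5, Arg1, Cpa3 and Lyz2 fell in the same CD8 T cell libraries as Ccr4 and Ccr8. Of the 11 ILC2 markers there 4 rose and 5 fell, and the myeloid marker Cd68 rose from 13.9 to 30.2 CPM. The part of other cells in the receptors' falls was not tested. The ratio of the cell types therefore turned for Ccr4: CD8 T cells had 182% of the ILC2 level alone and 15.9% after co-culture. For Ccr8 they had 74.6% alone and 6.34% after co-culture.

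Because Ccr4 and Ccr8 changed alike in CD8 T cells, the DNA before their start sites is shown. Both genes lie on chromosome 9, Ccr4 at chr9:114490316-114505476 (minus strand) and Ccr8 at chr9:120092133-120094906 (plus strand). The stretches are chr9:114496563-114496794 and chr9:120091883-120092113 (RefSeq, GRCm38.p6), the part of the 250 bases before a start that no annotated exon covers, 5′ to 3′ on each gene's strand. For Ccr8 this is the start of the gene as given, and for Ccr4 it is another RefSeq start, 8932 bases inside the gene. Capitals mark an AP-1 match (TGANTCA), the motif of factors such as BATF, in Ccr4, and a GATA match (AGATAA on the other strand) in Ccr8.
Ccr4: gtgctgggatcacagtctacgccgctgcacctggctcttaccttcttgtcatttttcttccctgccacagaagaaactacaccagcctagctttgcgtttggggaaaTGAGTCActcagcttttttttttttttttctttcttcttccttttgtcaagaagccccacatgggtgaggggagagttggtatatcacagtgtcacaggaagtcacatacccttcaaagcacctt
Ccr8: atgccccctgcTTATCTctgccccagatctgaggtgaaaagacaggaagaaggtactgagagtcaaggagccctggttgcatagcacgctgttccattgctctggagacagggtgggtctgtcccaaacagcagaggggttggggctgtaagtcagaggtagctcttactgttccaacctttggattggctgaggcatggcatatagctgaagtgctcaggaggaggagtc

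A search of both strands of these 250-base windows for 6 motifs found at most 1 match in a receptor. The GATA letters AGATAA were present before Ccr2 and Ccr8, and before 9.99% of 32851 gene starts in windows of the same length. The start used for Ccr2 lies 265 bases inside the gene, and its match lies in an annotated exon. The RUNX letters TGTGGT were present before Ccr1, Cxcr3 and Cx3cr1, and before 14.0% of gene starts, and the matches of Cxcr3 and Cx3cr1 lie in annotated exons of these same genes. AP-1 (TGANTCA) was present before Ccr4 and before 6.75% of gene starts. The T-box letters AGGTGT (11.8% of gene starts), the hypoxia response letters ACGTG (16.6%) and the FOXO letters GTAAACA (3.17%) were not in these windows. A match is only a match of letters.

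**Figure D2:**
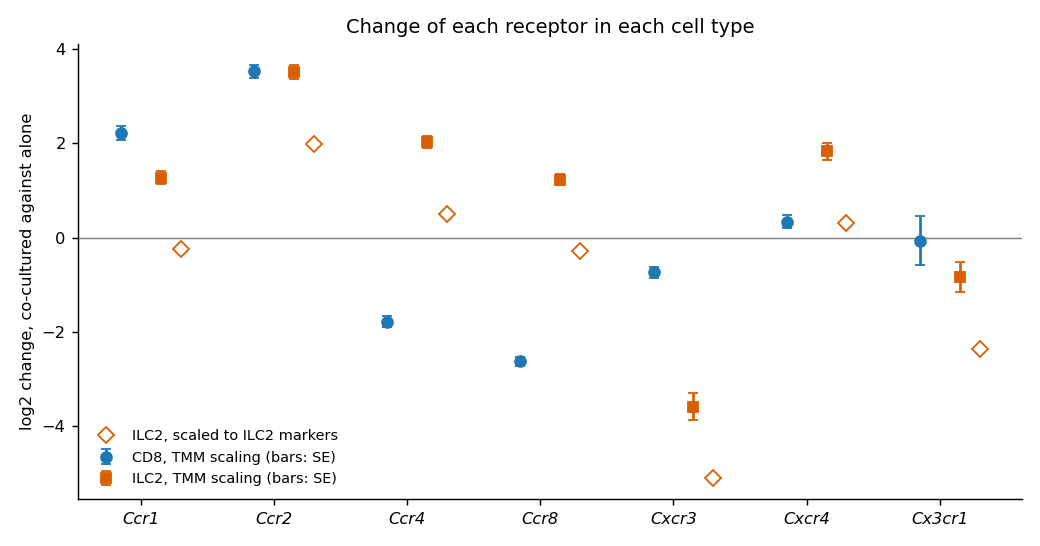
Fitted log2 change from alone to co-cultured for each receptor, with CD8 T cells as blue circles, ILC2s as orange squares, bars for 1 SE, and open diamonds for the ILC2 change after scaling to the ILC2 markers. Ccr2 lies above 0 in all 3 series (3.53, 3.51 and 1.98), Cxcr3 lies below 0 in all 3 (-0.73, -3.58 and -5.10), and Ccr1 and Ccr8 cross 0 in ILC2s with the marker scaling.

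Cxcr3, the receptor of type 1 effector T cells for interferon-induced chemokines, fell in both cell types. CD8 T cells had 31.8 and 24.6 CPM alone and 18.2 and 17.6 CPM after co-culture. The groups did not overlap, although the alone libraries differed from each other by more than the co-cultured ones did (means 28.2 ± 5.06 and 17.9 ± 0.438 CPM, SD, n = 2). The log2 change was -0.73 (SE 0.117 and, by edgeR, adjusted p = 0.00013). In ILC2s Cxcr3 went from 5.07 and 5.92 CPM, which were 308 and 328 reads, to 0.371 and 0.416 CPM, which were 18 and 20 reads. Its log2 change there was -3.58 (SE 0.295 and, by edgeR, adjusted p = 8.4e-07), or -5.10 with the marker scaling, and the fall was larger than in CD8 T cells by the interaction test (-3.02, SE 0.281, edgeR adjusted p = 2.1e-07).

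The Cxcr3 level in the alone ILC2 libraries was 19.5% of that in alone CD8 T cells, inside the range of the CD8 T cell markers in the same libraries (12.4% to 50.5%). In the co-cultured ILC2 libraries it was 2.20%, and the markers were at a median of 1.6% (0.675% to 89.2%). The part of CD8 T cell RNA in the Cxcr3 signal of the ILC2 libraries was not tested. Cxcr3 is the only member on the X chromosome, at chrX:101731535-101734147 (minus strand; RefSeq, GRCm38.p6).

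Cxcr4, the receptor for CXCL12 that retains cells in marrow and lymphoid tissue, was at 11.9 and 8.81 CPM in alone CD8 T cells and at 14.3 and 13.4 CPM in co-cultured ones. The co-cultured libraries were both higher, yet the log2 change of 0.34 (SE 0.144) did not pass the test (edgeR adjusted p = 0.056). It passed in 5 of 12 alternative analyses and did not in 7, with adjusted p-values from 0.0044 to 0.44, and leaving out alone replicate 1 raised it to 0.56 while leaving out alone replicate 2 lowered it to 0.15. In ILC2s Cxcr4 was at 7.66 and 10.6 CPM alone and at 27.6 and 28.4 CPM after co-culture, with means of 9.12 ± 2.08 and 28.0 ± 0.53 CPM (SD, n = 2). The log2 change was 1.83 (SE 0.173 and, by edgeR, adjusted p = 2.6e-06), or 0.31 with the libraries scaled to the ILC2 markers, which did not pass (edgeR adjusted p = 0.13). The interaction was 1.32 (SE 0.238 and, by edgeR, adjusted p = 0.00022) and turned to -0.07 with that scaling (edgeR adjusted p = 0.8). The alone groups of the 2 cell types overlapped. Cxcr4 lies at chr1:128588199-128592299 (minus strand; RefSeq, GRCm38.p6).

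Cx3cr1, the fractalkine receptor of monocytes and of long-lived effector CD8 T cells, was close to the limit of detection in CD8 T cells. The alone libraries had 12 and 19 reads (0.228 and 0.333 CPM) and the co-cultured libraries 10 and 28 reads (0.151 and 0.417 CPM). These values overlapped, and a change was not detectable at this depth (log2 change -0.06 with SE 0.522 and adjusted p = 0.93 by edgeR, with the sign turning to 0.02 when only library totals were used for scaling). ILC2s had 159 and 200 reads alone (2.62 and 3.61 CPM) and 86 and 59 reads after co-culture (1.77 and 1.23 CPM). The log2 change was -0.83 (SE 0.314 and, by edgeR, adjusted p = 0.035), or -2.36 with the marker scaling, and the call was lost in 4 of 13 alternatives, which include leaving out alone replicate 2 (-0.58, edgeR adjusted p = 0.3) and leaving out co-cultured replicate 2 (-0.56, edgeR adjusted p = 0.11). Monocyte and macrophage markers fell in the same libraries, with a median log2 change of -6.54 over 5, and their part in the Cx3cr1 signal was not tested. The difference between the cell types did not pass the interaction test (-0.94, SE 0.617, edgeR adjusted p = 0.21), although it passed with the ILC2 libraries scaled to the ILC2 markers (-2.33, edgeR adjusted p = 0.0028). Cx3cr1 lies next to Ccr8, at chr9:120048683-120068296 (minus strand; RefSeq, GRCm38.p6). Of its 50-base stretches 1.06% are shared with other genes, most often with the gene model Gm33858, and 0% of its 100-base stretches are. Reads of overlapping genes on opposite strands cannot be told apart because the strand setting is not given.

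Levels of different receptors were compared as CPM per kilobase of exon length. In alone CD8 T cells Ccr8 led at 51.9 ± 1.23 CPM per kb (SD, n = 2), ahead of Cxcr3 at 16.3 ± 2.92, Ccr4 at 8.18 ± 0.691 and Cxcr4 at 5.74 ± 1.22, with Ccr1, Ccr2 and Cx3cr1 lowest. In co-cultured CD8 T cells Cxcr3 was first at 10.4 ± 0.253 CPM per kb, followed by Ccr8 at 8.95 ± 0.564 and Cxcr4 at 7.68 ± 0.356. Ccr2 and Ccr1 came next, at 5.24 ± 0.247 and 5.10 ± 0.708 CPM per kb, and did not differ beyond the spread of the libraries. In ILC2s the first 3 places were Ccr8, Ccr1 and Ccr2 in both cultures, at 69.6 ± 3.68, 52.0 ± 7.58 and 9.59 ± 0.128 CPM per kb alone and at 141 ± 7.37, 108 ± 2.31 and 94.1 ± 11.9 CPM per kb after co-culture. Ccr4 and Cxcr4 overlapped each other in both ILC2 groups, and Cxcr3 was the lowest receptor in co-cultured ILC2s at 0.227 ± 0.0183 CPM per kb. Ccr2 was divided by 6760 bases of exon in all, while its longest transcript has 5728 bases. After co-culture its place next to Ccr1 in both cell types depends on the length used.

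The make-up of the receptor mRNA, which no scaling between libraries can change, shifted in both cell types. Ccr8 was 60.0% and 64.3% of the summed CPM per kb of the 7 receptors in the alone CD8 T cell libraries and 21.0% and 23.9% in the co-cultured ones. Ccr2 was 0.418% and 0.610% of the sum in alone CD8 T cells and 13.3% and 12.9% after co-culture. In ILC2s the Ccr2 share was 7.03% and 6.28% alone and 27.0% and 23.0% after co-culture, while the Ccr8 share was 49.6% and 46.9% alone and 35.8% and 39.4% after co-culture. Each of these shares separated the alone from the co-cultured libraries of its cell type. The shares are given as a description, with no test. They still depend on which cells a library holds, and the alone ILC2 libraries carried markers of other cells, as given above. The part of other cells in these shifts was not tested.

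**Figure D3:**
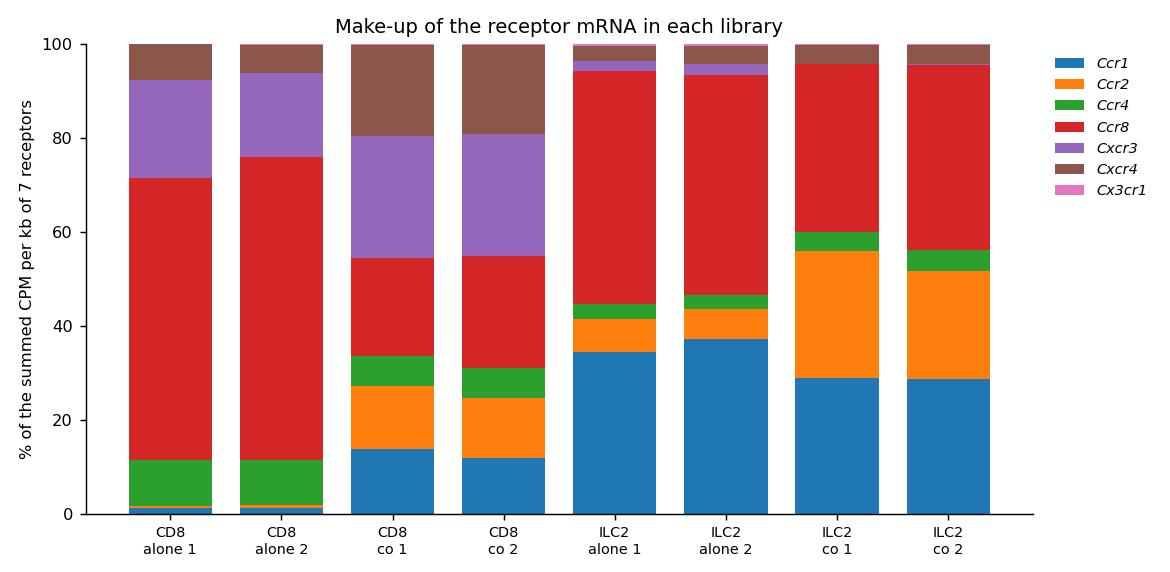
Share of each receptor in the summed CPM per kilobase of the 7 receptors (stacked bars from 0 to 100%), with 1 bar per library. The Ccr8 share is lower in the co-cultured CD8 T cells (21.0% and 23.9%) than in the alone ones (60.0% and 64.3%), and the Ccr2 share is higher in the co-cultured libraries of both cell types.

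Transcripts for the receptors' ligands were mostly lower after co-culture. Of 16 ligand genes listed, 8 were in the ILC2 table and all 8 fell, with a median log2 change of -7.51. The CD8 T cell table held 7 of them, of which 6 fell and 1 rose, with a median of -3.42. Over all genes tested, 34.4% were called lower in ILC2s and 30.7% in CD8 T cells. Ccl1, Ccl2, Ccl7, Ccl8, Ccl12, Cxcl11 and Cxcl12, which include the ligands named here for CCR2, CCR8 and CXCR4, were in neither table, and a gene is in a table only if every library has at least 1 read of it.

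In ILC2s the ligands of CXCR3 showed the largest falls of the 8. Cxcl10 was at 546 and 536 CPM in the alone ILC2 libraries and at 0.310 and 0.333 CPM in the co-cultured ones (log2 change -10.49 with SE 0.19 and adjusted p = 1.9e-11 by edgeR). Cxcl9 was at 528 and 491 CPM alone and at 0.351 and 0.395 CPM after co-culture (log2 change -10.19 with SE 0.19 and adjusted p = 1.9e-11 by edgeR). Both are made by many cell types under interferon gamma, and in the same libraries Col1a1, a collagen of fibroblasts, went from 1147 to 0.476 CPM and Cd14, a monocyte and macrophage marker, from 136 to 1.04 CPM. The part of other cells in these ligand signals was not tested. Cxcl10 in CD8 T cells was at 2.97 CPM alone and 0.218 CPM after co-culture (log2 change -3.84), a smaller fall than those of Ccl6 and Ccl22 in the same cells. The falls of Cxcl10, Ccl6 and Ccl22 in CD8 T cells came with those of Lyz2, Cpa3 and Lum given above. In the same libraries the myeloid marker Cd68 rose, as did 4 of 5 stroma, epithelium and endothelium markers. The part of other cells in these ligand falls was not tested.

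Among the ligands of CCR1, Ccl3 was the most abundant in CD8 T cells, at 456 and 468 CPM alone and 180 and 192 CPM after co-culture (log2 change -1.40 with SE 0.072 and adjusted p = 1e-08 by edgeR). In ILC2s it went from 324 and 354 CPM to 1.47 and 2.18 CPM, a log2 change of -7.33 (SE 0.19 and, by edgeR, adjusted p = 1e-10). Both libraries of each co-cultured group were below both alone libraries, so this ligand was lower where its receptor Ccr1 was called higher, with the exception that the Ccr1 sign in ILC2s turns under the marker scaling. Ccl5 was the single ligand that rose, in CD8 T cells, from 7.54 and 6.83 CPM to 20.1 and 19.4 CPM (log2 change 1.38 with SE 0.118 and adjusted p = 5.9e-07 by edgeR). In ILC2s Ccl5 fell from 33.1 to 4.39 CPM (log2 change -2.70). Ccl6 and Ccl9 fell in both cell types, with log2 changes of -5.22 and -3.42 in CD8 T cells and of -8.05 and -7.70 in ILC2s.

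Ccl22, the CCR4 ligand of dendritic cells and macrophages, fell in ILC2s from 163 and 201 CPM to 1.73 and 2.12 CPM (log2 change -6.35 with SE 0.185 and adjusted p = 2e-10 by edgeR). Its fall in CD8 T cells was from 13.1 and 9.32 CPM to 0.771 and 0.209 CPM (log2 change -4.59 with SE 0.346 and adjusted p = 2e-07 by edgeR). Ccl17, the other CCR4 ligand, was in the CD8 T cell table only and fell from 0.679 to 0.0750 CPM. Cx3cl1, the CX3CR1 ligand, was in the ILC2 table only and fell from 37.7 to 0.829 CPM. Under the ILC2 marker scaling all 8 ligands in ILC2s had the same sign and passed the test.

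**Figure D4:**
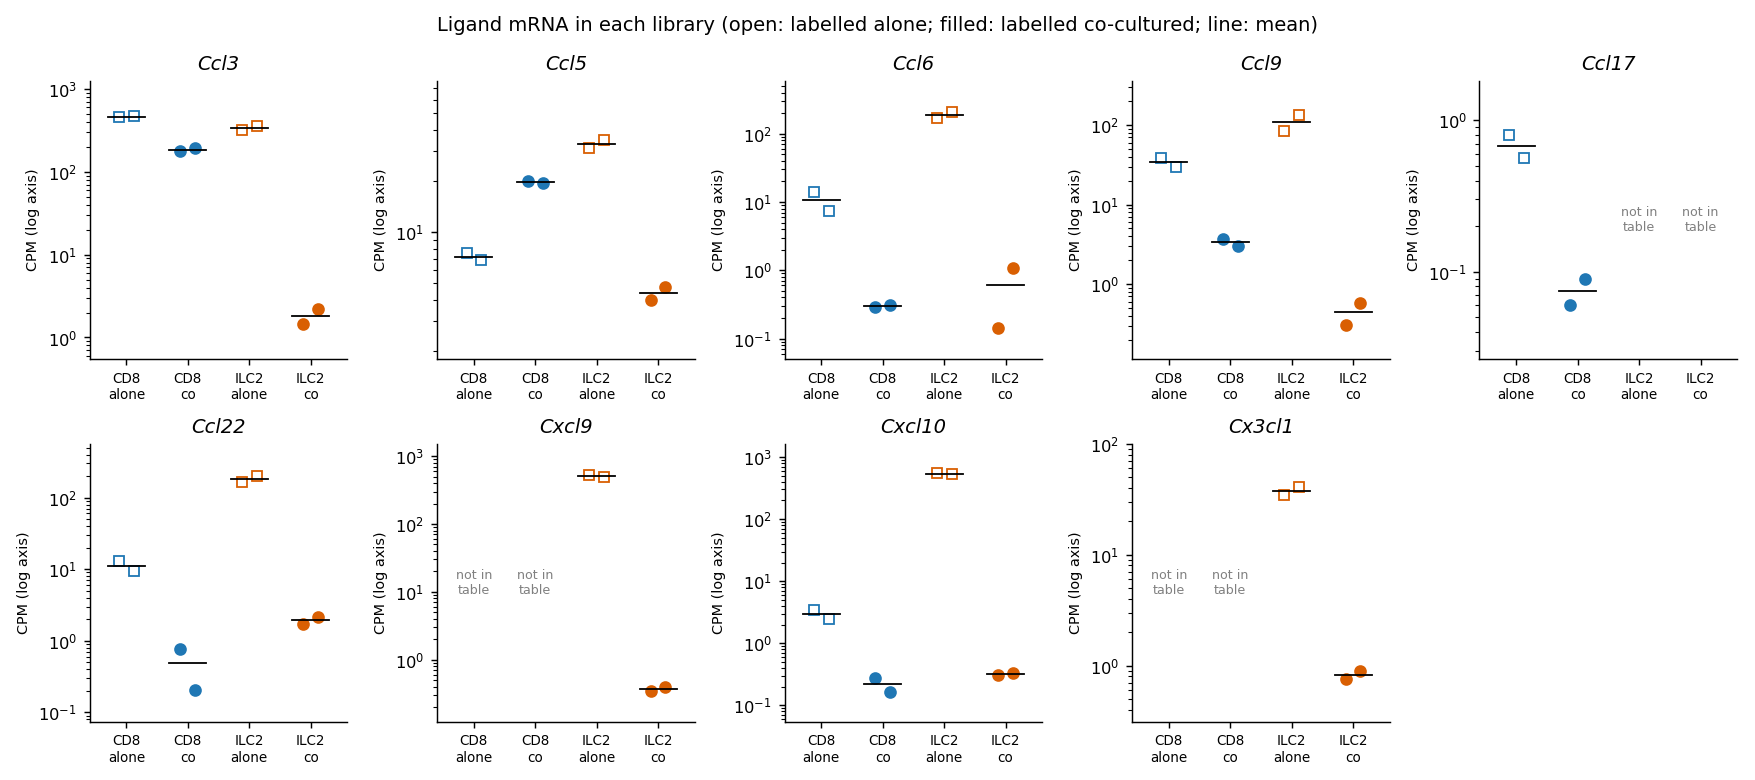
Level of 9 ligand genes in CPM (log axis) in every library, drawn as for the receptors; genes outside a table are marked. All 8 ligands in the ILC2 table are lower in the co-cultured libraries, and Ccl5 in CD8 T cells is the single ligand that is higher after co-culture.

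The remaining chemokine receptors include those for homing to gut and lymph node. In CD8 T cells 6 of 7 tested rose, where 30.2% of all genes did, led by Ccr9, the gut-homing receptor, from 1.86 and 1.21 CPM to 303 and 298 CPM (log2 change 7.54 with SE 0.133 and adjusted p = 3.5e-12 by edgeR). Ccr7, the lymph node homing receptor, had the most counts of the list, at 2227 CPM alone and 3351 CPM after co-culture (log2 change 0.51). In ILC2s 2 of 9 tested rose and 5 fell, where 31.8% of all genes rose and 34.4% fell. Cxcr6 and Xcr1 rose there by 1.31 and 1.40 on the log2 scale, but both turned sign with the marker scaling (-0.22 and -0.13). Ccr7 fell from 491 to 102 CPM (log2 change -2.06), Ccr6, the receptor for CCL20, by 3.09 on the log2 scale and Cxcr2, a neutrophil receptor, by 2.78. Both CD8 T cell groups held more Ccr7 than the alone ILC2s. The part of other cells in these falls in the ILC2 libraries was not tested.

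Several receptor genes neighbour each other on chromosome 9, in the order Cxcr6, Xcr1, Ccr1, Ccr1l1, Ccr3 and Ccr2. Of the 5 measured in CD8 T cells, 4 were called higher, all but Xcr1 (log2 change -0.24, edgeR adjusted p = 0.48). Over all genes tested in CD8 T cells, 30.2% were called higher. In ILC2s Ccr2 rose by 3.51, and with the libraries scaled to the ILC2 markers by 1.98. Ccr1l1, a Ccr1-like gene, was in the ILC2 table only, at 0.128 CPM alone and 1.16 CPM after co-culture (log2 change 3.35 with SE 0.511 and adjusted p = 0.00012 by edgeR, and 1.85 with the marker scaling). Ccr3, the eosinophil receptor, was under 2 CPM in every library, and its log2 change was 2.04 in CD8 T cells (edgeR adjusted p = 0.00014) and 0.54 in ILC2s, which did not pass (edgeR adjusted p = 0.17) and was -0.98 with the marker scaling.

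**Figure D5:**
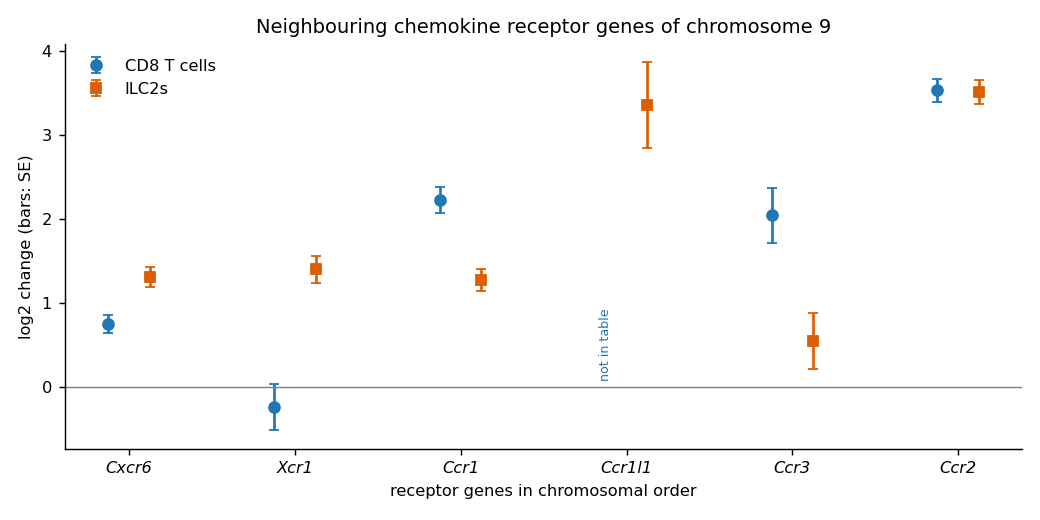
Fitted log2 change from alone to co-cultured, with bars for 1 SE, of neighbouring receptor genes of chromosome 9 in their order (not to scale in distance). Ccr2 rises in both cell types (3.53 and 3.51); with the libraries scaled to the ILC2 markers, Cxcr6, Xcr1, Ccr1 and Ccr3 turn sign in ILC2s.

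Atypical chemokine receptors take up chemokines without G protein signalling. In ILC2s Ackr3, which binds CXCL12, fell from 15.1 and 18.9 CPM to 1.36 and 0.728 CPM (log2 change -3.80 with SE 0.276 and adjusted p = 2.9e-07 by edgeR). Ccrl2 fell there by 1.34 on the log2 scale, and Ackr4 rose by 2.14 at no more than 0.330 CPM in any library (edgeR adjusted p = 0.0093). Ackr4 did not pass with the marker scaling (0.64, edgeR adjusted p = 0.36), by DESeq2 (adjusted p = 0.11), without alone replicate 1 (edgeR adjusted p = 0.061) or without alone replicate 2 (edgeR adjusted p = 0.16). Ccrl2 in CD8 T cells was at 14.1 CPM alone and 12.4 CPM after co-culture, a log2 change of -0.26 that did not pass (edgeR adjusted p = 0.068).

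The signalling route below the receptors runs from G proteins to kinases, small GTPases and the actin skeleton. Of 16 genes listed for it, 10 rose and 4 fell in CD8 T cells, with a median log2 change of 0.29, and 9 rose and 2 fell in ILC2s, with a median of 0.44. Over all genes tested, 30.2% were called higher and 30.7% lower in CD8 T cells, and 31.8% and 34.4% in ILC2s. Pik3r6, a regulatory subunit of the phosphoinositide 3-kinase gamma that G proteins activate, rose in CD8 T cells from 3.08 and 2.98 CPM to 27.4 and 27.2 CPM (log2 change 3.09 with SE 0.123 and adjusted p = 1.4e-09 by edgeR). In ILC2s it fell from 11.8 and 10.1 CPM to 1.28 and 1.42 CPM (log2 change -2.81 with SE 0.204 and adjusted p = 3e-07 by edgeR). Plcb3, a phospholipase C, rose by 1.05 in CD8 T cells, where Was, the actin regulator, fell by 0.55 and the small GTPase Rap1b by 0.40. Rap1b fell in ILC2s by 0.46. Gng2, a G protein gamma subunit, rose in ILC2s by 1.43, the GTPase Rac2 by 0.97 and the inhibitory G protein subunit Gnai2 by 0.68, but all 3 turned sign with the marker scaling (-0.10, -0.56 and -0.84). Coro1a, an actin-binding protein with the most counts of the list in CD8 T cells, had a log2 change of -0.21 there (edgeR adjusted p = 0.072), which passed without alone replicate 1 (-0.22) or without co-cultured replicate 2 (-0.37).

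Genes that switch the receptors off changed in both directions. Of 12 tested in CD8 T cells 5 rose and 5 fell, and of 14 in ILC2s 7 rose and 4 fell, against the same shares of all genes. Rgs1, which shortens G protein signals and damps migration to chemokines, was at 383 and 402 CPM in alone CD8 T cells and at 207 and 204 CPM in co-cultured ones (log2 change -1.01 with SE 0.07 and adjusted p = 9.3e-08 by edgeR). In ILC2s it was at 939 and 845 CPM alone and 2418 and 2226 CPM after co-culture (log2 change 1.60 with SE 0.118 and adjusted p = 3.4e-07 by edgeR), which fell to 0.07 with the marker scaling and no longer passed. Rgs16 fell in ILC2s from 214 to 6.32 CPM (log2 change -4.87), as did the receptor kinase Grk3 (-1.51). The beta-arrestins Arrb1 and Arrb2, which bind phosphorylated receptors, rose in ILC2s by 1.79 and 1.73, or by 0.27 and 0.21 with the marker scaling, where the Arrb2 change no longer passed (edgeR adjusted p = 0.11). The receptor kinase Grk6 rose in CD8 T cells by 1.16 and Rgs3 by 1.07, and Grk5 fell by 0.90, a call lost without co-cultured replicate 1 (-0.58, edgeR adjusted p = 0.062).

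Of 10 transcription factors tied to these receptors, 7 rose and 2 fell in CD8 T cells, and 5 rose and 4 fell in ILC2s, against 30.2% and 30.7% of all genes called higher and lower in CD8 T cells and 31.8% and 34.4% in ILC2s. The 2 that fell in CD8 T cells were Batf, an AP-1 family factor, from 55.1 and 49.5 CPM to 32.3 and 33.1 CPM (log2 change -0.76 with SE 0.084 and adjusted p = 5.3e-06 by edgeR), and Gata3, from 117 and 119 CPM to 77.6 and 86.3 CPM (log2 change -0.60 with SE 0.078 and adjusted p = 2e-05 by edgeR). Both had the opposite sign in ILC2s. Gata3, which is also in the ILC2 marker list, rose there from 429 and 400 CPM to 1317 and 1237 CPM (log2 change 1.84, and 0.31 with the marker scaling). Batf was at 85.8 and 65.3 CPM alone and 181 and 215 CPM after co-culture (log2 change 1.60, and 0.08 with the marker scaling, which did not pass).

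Tbx21, the type 1 factor T-bet that activates Cxcr3, fell in ILC2s from 88.0 and 98.7 CPM to 6.75 and 7.49 CPM (log2 change -3.50 with SE 0.143 and adjusted p = 2.6e-09 by edgeR), and its relative Eomes from 14.7 to 0.984 CPM (-3.68). Alone CD8 T cells held more of both, at 166 and 25.1 CPM. All 5 NK cell markers tested in ILC2s, which include Eomes, fell, as did 10 of 11 CD8 T cell markers, where 34.4% of all genes were called lower. The part of other cells in the Tbx21 and Eomes falls was not tested. In CD8 T cells Tbx21 rose from 166 to 236 CPM (log2 change 0.42 with SE 0.086 and adjusted p = 0.00092 by edgeR) while Cxcr3 fell by 0.73. Runx3 rose in ILC2s from 84.3 to 316 CPM (log2 change 2.12, and 0.59 with the marker scaling) and in CD8 T cells from 135 to 235 CPM (0.72). Hif1a, the hypoxia factor, rose in CD8 T cells by 1.5 and Foxo1 by 1.29. In ILC2s Hif1a rose by 0.41 (edgeR adjusted p = 0.023) but turned to -1.12 with the marker scaling (edgeR adjusted p = 3.7e-06). The Hif1a call there was also lost with all 8 libraries in 1 fit (0.25, edgeR adjusted p = 0.078), with library totals only (0.19, edgeR adjusted p = 0.19), with no low-count filter (0.37, edgeR adjusted p = 0.074) and without co-cultured replicate 1 (0.15, edgeR adjusted p = 0.36).

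The genes most like each receptor over the 8 libraries were found by Pearson's r of log2 CPM. These 8 points form 4 groups in 2 tables, so the values describe the group pattern and carry no test. Closest to Ccr2 was Pde4b, a phosphodiesterase that degrades cyclic AMP, with r = 0.9992, at 83.2 and 318 CPM in alone and co-cultured CD8 T cells and 410 and 1372 CPM in alone and co-cultured ILC2s. Phf1 followed with r = 0.999. Closest to Ccr1 were Irf1, an interferon-induced factor, with r = 0.998, and Tap2, a peptide transporter of antigen presentation, with r = 0.9975. Irf1 was at 304 and 469 CPM in CD8 T cells and 1004 and 1318 CPM in ILC2s. Ccr8 was most like Plp2 (r = 0.9958) and Sema4a (r = 0.9908), and Ccr4 most like Pcnp (r = 0.9887) and Prxl2a (r = 0.9877). The closest to Cxcr3 were Mrrf (r = 0.9991) and Eid1 (r = 0.9988), to Cxcr4 Fbxo31 (r = 0.9877) and Slc25a36 (r = 0.97), and to Cx3cr1 Entpd7 (r = 0.9894) and Gorasp2 (r = 0.9805).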

How the data were processed

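Read counts per gene were deposited as whole numbers in 2 tables, 1 per cell type with 4 libraries each. Among the tools in the submitters' processing notes are HISAT2 2.1.0 and StringTie 2.1.3b, with Trimmomatic 0.38 and SAMtools 1.9, and the build is mm10. Their roles, the annotation, the strand setting and the handling of reads shared between genes were not given in the sources used here. Trizol extraction and a SMART-Seq v4 library kit were used, per the labels' protocols. The lowest count in each library is 1, so a gene with 0 reads in any library is in no table. Replicates of a group differed beyond sampling noise, with a chi-square of 12.54 to 25.9 per gene, and were kept as separate samples.

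CPM is the count over the library's total in its own table, so levels set across tables rest on those totals. Log2 changes, standard errors (the change over the square root of F) and adjusted p-values come from edgeR 4.0.16 in R 4.3.3 (filterByExpr, TMM, quasi-likelihood F test, Benjamini-Hochberg over all genes tested), fitted to the 4 libraries of a cell type, and to all 8 for the interaction, whose median over all genes is -0.132. Alternatives used DESeq2 1.42.0, limma 3.58.1, other scalings and filters, the replicate block, and each library left out. The fitting script was tested on simulated data. Exon lengths are from GENCODE M21 and positions and sequences from RefSeq GRCm38.p6, the assembly of mm10; 95.7% of symbols matched in each table, and 2 older kinase symbols were matched to Grk2 and Grk3. The receptors and all lists were chosen with earlier results of these data known. From each list the text names the most abundant member and, per direction, the 2 members past the threshold with the largest changes, plus chromosomal neighbours and the 2 most similar genes whose log2 CPM averages 4 or more; the remaining ligands, Ccr1l1, Ccr7 in ILC2s and the further values of Tbx21, Batf, Runx3 and of the markers were picked after their values were seen. Some genes that these rules take in are not reported here.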

Additional observations from a re-analysis of the deposited data

Results flagged for a closer look

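For 5 receptors the change with co-culture differed between the cell types by the interaction test in edgeR, given as the ILC2 log2 change minus the CD8 T cell log2 change. The differences were -1.11 for Ccr1 (adjusted p = 0.00013), 3.64 for Ccr4 (adjusted p = 9.8e-11), 3.68 for Ccr8 (adjusted p = 8e-12), -3.02 for Cxcr3 (adjusted p = 2.1e-07) and 1.32 for Cxcr4 (adjusted p = 0.00022). With the ILC2 libraries scaled to the ILC2 markers, the differences for Ccr1, Ccr4, Ccr8 and Cxcr3 had the same sign and passed the test, and that for Cxcr4 was -0.07.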

How the results depend on the processing

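In CD8 T cells, Ccr1, Ccr2, Ccr4, Ccr8 and Cxcr3 had the same direction and passed in all 12 alternatives, Cxcr4 passed in 5 of them, and Cx3cr1, never called, turned sign with library totals (0.02) and ranged from -0.96 to 0.49 when 1 library was left out, where 2 of the 4 values were above 0 (0.25 without alone replicate 2 and 0.49 without co-cultured replicate 1). In ILC2s, Ccr2, Ccr4 and Cxcr3 passed in all 13 alternatives. Scaling to the ILC2 markers lowered the receptors that rose from 5 to 2, gave 493 genes higher and 13303 lower, and turned Ccr1 (-0.25), Ccr8 (-0.29), Ccr3 (-0.98), Cxcr6 (-0.22), Xcr1 (-0.13), Gnai2 (-0.84), Gng2 (-0.10), Hif1a (-1.12) and Rac2 (-0.56). The receptors that fell in ILC2s were 1 with DESeq2 and 1 with the replicate block, and 1 to 2 with 1 library left out (1 without alone replicate 2 and 1 without co-cultured replicate 2), since Cx3cr1 no longer passed (-0.80, -0.84, -0.58 and -0.56). The replicate block also brought Cxcr4 in CD8 T cells past the threshold (0.35, edgeR adjusted p = 0.028) and changed no other receptor's call; same-numbered libraries deviated from their group means with r = -0.0268 in CD8 T cells and 0.0421 in ILC2s, so the numbers were not taken as pairs. For the interaction, scaling the ILC2 libraries to the ILC2 markers, chosen after seeing the data, gave 347 genes higher and 12126 lower, 4 receptors lower in place of 2, and -0.07 for Cxcr4; with 1 library left out the Ccr2 difference ran from -0.43 to 0.02, the latter without ILC2 co-cultured replicate 2. Of the other named genes, the 29 in CD8 T cells gave 341 values with the same direction and side of the threshold, 4 that newly passed and 1 that no longer passed, and the 34 in ILC2s gave 413 such values, 11 that no longer passed and 7 that turned sign. With a lone library left in a group, its spread is assumed to equal that of the other group. Depth limits Cx3cr1 in CD8 T cells (10 to 28 reads) and Cxcr3 in co-cultured ILC2s (18 and 20 reads).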
